A study of Mus musculus with 8 samples.

Results

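miR-9 and miR-124 are the neural fate miRNAs of vertebrates, and the 4 mature arms that come from them, mmu-miR-9-5p, mmu-miR-9-3p, mmu-miR-124-3p and mmu-miR-124-5p, were taken by name from the deposited table of 1396 mature mouse miRNAs. All 4 had a mean of at least 1 CPM (reads scaled to a common library total) and were among the 605 miRNAs tested. The tissue was left spinal cord of C57BL/6 mice, from which small RNA was sequenced. Libraries bone cancer pain 1 to 4 are from mice given LL/2 cells, a mouse lung cancer line, in the marrow cavity of the left femur, and libraries sham 1 to 4 from mice given saline there. The labels give neither age nor time after surgery, and do not say that each library is a separate animal; p-values therefore concern the spread among these libraries, which could be technical.

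A mature miRNA is cut from one arm of a hairpin precursor and guides a silencing complex to messenger RNAs that pair with its seed, the bases near its 5′ end. miR-9 is made in neural progenitors and in neurons, and miR-124 accumulates in neurons once they leave the cell cycle; the repressor REST holds both genes off in non-neuronal cells. In neurons miR-124 lowers Ptbp1, a splicing repressor of non-neuronal cells. Both miR-124 and miR-9-3p lower Actl6a, a progenitor subunit of the BAF chromatin remodelling complex. The miR-9-3p arm, once called miR-9*, is itself active in neural cells.

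Each of the 4 arms can come from 3 gene copies. In GENCODE M21 (GRCm38), Mir9-1 lies at chr3:88215598-88215686 in an intron of the long non-coding RNA Gm3764, Mir9-2 at chr13:83738814-83738885 within an exon of C130071C03Rik, and Mir9-3 at chr7:79505264-79505353 in an intron of Mir9-3hg. Mir124a-1 lies at chr14:64590657-64590741 within an exon of Mir124a-1hg, Mir124a-2 at chr3:17795662-17795770 partly over an exon of Mir124-2hg, and Mir124a-3 at chr2:180894040-180894107, overlapping the edge of Gm27032. All 6 are on the plus strand, as are these long RNAs. Of the 4 arms, 2 were matched by name in the RefSeq table (GRCm38.p6), miR-9-5p and miR-9-3p. Their sequences are shown, 5′ to 3′, because the seed (bases 2 to 8, in capitals) decides which messages an arm can reach.
miR-9-5p: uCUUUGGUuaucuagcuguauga
miR-9-3p: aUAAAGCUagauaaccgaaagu
The arms have different seeds, and none of the other mature mouse miRNAs in that table, which holds 1679 names, has either seed. miR-9-5p is 23 bases long and begins with U, and miR-9-3p is 22 bases long and begins with A.

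The 3 hairpins are shown to make plain why reads cannot be given to one gene: the arms, in capitals, are identical in all 3, and only the flanks and the loop between the arms, of 14 or 16 bases, differ.
Mir9-1: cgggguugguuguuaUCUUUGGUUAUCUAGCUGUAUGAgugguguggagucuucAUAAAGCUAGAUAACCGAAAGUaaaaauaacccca
Mir9-2: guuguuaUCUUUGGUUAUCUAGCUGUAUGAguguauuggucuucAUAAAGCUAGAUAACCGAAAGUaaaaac
Mir9-3: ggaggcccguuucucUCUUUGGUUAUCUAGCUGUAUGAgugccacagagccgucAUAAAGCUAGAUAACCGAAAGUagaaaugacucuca
A level of miR-9-5p or miR-9-3p is therefore the sum over the 3 genes.

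The libraries held 5220739 to 9260169 reads of listed miRNAs. The spinal cord label was read against marker miRNAs. miR-10b-5p and miR-10a-5p, encoded in Hox clusters and typical of caudal tissue, ranked 1 and 5 by mean level, and the oligodendrocyte miRNA miR-219a-2-3p had means of 1461 ± 57.5 CPM in bone cancer pain and 1704 ± 523 CPM in sham (SD, n = 4 each). Skeletal muscle miRNAs summed to between 6068 and 16950 CPM in bone cancer pain and between 5379 and 29300 CPM in sham, with sham 1 and sham 2 highest, and erythroid miRNAs to between 2171 and 3631 CPM in bone cancer pain and between 1056 and 4786 CPM in sham. In the muscle list 1 to 3 of 10 names were at 0 in a library, always among miR-1a-2-5p, miR-208b-3p and miR-499-3p, while none of the 7 erythroid names was at 0. Deviations from the group means across the 605 miRNAs had r = 0.492 for bone cancer pain 3 with sham 4, the highest of the 16 pairs between groups. Other pairs came near, with 0.441 for bone cancer pain 2 with sham 3 and 0.399 for bone cancer pain 4 with sham 2. The lowest was -0.348, for bone cancer pain 3 with sham 2. Deviations sum to 0 within a group, so the pairs are not independent. Neither are the miRNAs, and these values are descriptions.

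miR-9-5p was among the most abundant miRNAs of the cord, at a level the groups shared. It had 96025, 91922, 103034 and 83597 CPM in bone cancer pain 1 to 4, and 92757, 90484, 98739 and 93194 CPM in sham 1 to 4. Bone cancer pain held both the highest library, number 3, and the lowest, number 4, so the groups overlapped throughout. The mean of miR-9-5p was 93645 ± 8119 CPM in bone cancer pain and 93793 ± 3505 CPM in sham (SD, n = 4 each), from 716357 to 1245960 reads per library. It alone took 12.1% to 15.4% of the listed miRNA reads in bone cancer pain and 13.2% to 14.4% in sham.

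miR-9-3p, the lesser arm, had 1273, 1311, 1872 and 1259 CPM in bone cancer pain 1 to 4, and 1196, 1273, 1252 and 1562 CPM in sham 1 to 4. In each group 1 library stood above the others, bone cancer pain 3 and sham 4, and the remaining 6 lay between 1196 and 1311 CPM. The mean was 1429 ± 296 CPM in bone cancer pain and 1321 ± 164 CPM in sham (SD, n = 4 each).

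miR-124-3p, the arm that carries the known neuronal activity of miR-124, had 872, 774, 1271 and 981 CPM in bone cancer pain 1 to 4, and 748, 777, 812 and 1260 CPM in sham 1 to 4. The same libraries, bone cancer pain 3 and sham 4, were highest, at nearly the same level. Its mean was 975 ± 215 CPM in bone cancer pain and 899 ± 242 CPM in sham (SD, n = 4 each).

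miR-124-5p, its passenger arm, had 30.8, 32.7, 40.7 and 29.2 CPM in bone cancer pain 1 to 4, and 36.5, 30.8, 39.8 and 37.0 CPM in sham 1 to 4. Bone cancer pain 3 was again highest, but sham 3, not sham 4, was highest in its group. The mean was 33.4 ± 5.11 CPM in bone cancer pain and 36.0 ± 3.76 CPM in sham (SD, n = 4 each), resting on 251 to 502 reads per library.

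**Figure D1:**
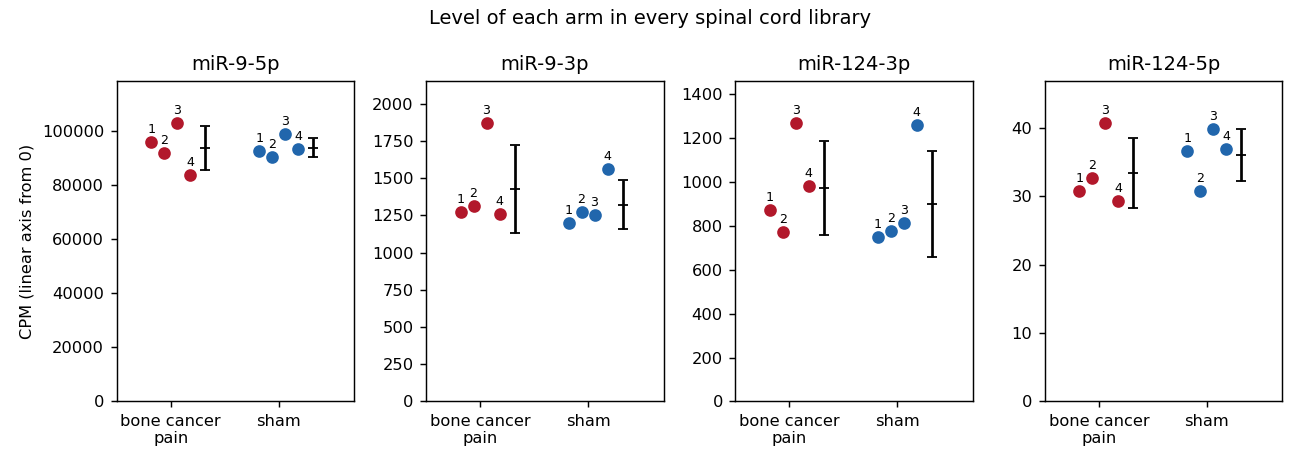
CPM (linear axes from 0, 1 panel per arm) in each library, with points numbered by replicate and the bar at the right of each group giving mean ± SD (n = 4). The groups overlap in every panel; bone cancer pain 3 (1872 and 1271 CPM) and sham 4 (1562 and 1260 CPM) stand highest for miR-9-3p and miR-124-3p.

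In every library the order was miR-9-5p, miR-9-3p, miR-124-3p, miR-124-5p, so each arm was above the next in 8 of 8 libraries. All are counted in reads per mature miRNA of similar length, though libraries of small RNA recover different sequences with different efficiency. By mean level miR-9-5p ranked 2, below miR-10b-5p (110363 ± 11816 CPM over the 8 libraries, SD) and above miR-127-3p (42868 ± 3362 CPM), an imprinted miRNA encoded antisense to Rtl1. miR-26a-5p, at 27871 CPM, followed. miR-9-5p exceeded miR-10b-5p in 1 of 8 libraries, bone cancer pain 3, and miR-127-3p in 8 of 8.

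miR-9-3p ranked 58, between miR-30e-3p (1389 ± 123 CPM) and let-7j (1305 ± 51.5 CPM), and it was above let-7j in 4 of 8 libraries. miR-124-3p ranked 71, between miR-744-5p (986 ± 213 CPM) and the erythroid miRNA miR-451a (921 ± 538 CPM), which it exceeded in 4 of 8. miR-124-5p ranked 258, between miR-298-5p (35.4 ± 9.89 CPM) and miR-466i-5p (34.2 ± 22.5 CPM), and was above each in 5 of 8. For these 3 arms the distance in mean to either neighbour in rank was smaller than the SD of the arm over the 8 libraries.

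**Figure D2:**
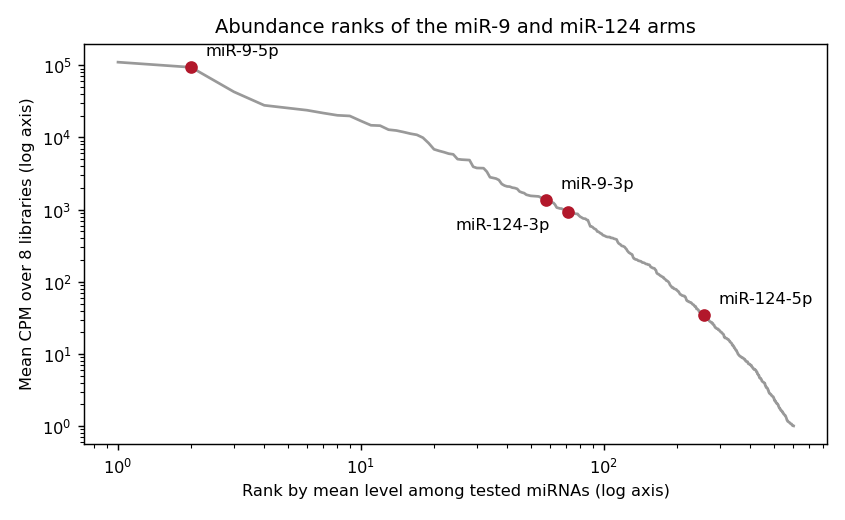
Mean CPM over the 8 libraries (log axis) against rank (log axis) for the 605 tested miRNAs (grey line), with the 4 arms as red points. miR-9-5p stands at rank 2, miR-9-3p and miR-124-3p close together at ranks 58 and 71, and miR-124-5p at rank 258.

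The arms differed in how much they varied between libraries. Over the 8 libraries the coefficient of variation (SD as a percentage of the mean) was 6.18% for miR-9-5p, 16.7% for miR-9-3p, 23.0% for miR-124-3p and 12.6% for miR-124-5p. Counting error alone would give 0.102% for miR-9-5p, 0.848% for miR-9-3p, 1.03% for miR-124-3p and 5.33% for miR-124-5p at these depths. Set beside the miRNAs within 20 ranks of it, miR-9-5p varied little (3 of 21 varied less, median 10.6%) and miR-124-3p varied much (34 of 40 varied less, median 13.5%). miR-9-3p had 24 of 40 neighbours below it and miR-124-5p 5 of 40. These are descriptions, with no test.

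The comparison of bone cancer pain with sham asks whether tumour growth in the femur goes with another level of these miRNAs in the cord. None of the 4 arms passed. limma on log2(CPM + 1), with Benjamini-Hochberg adjustment over the 605 miRNAs, called 0 of 4 members at an adjusted p under 0.05, where the share over all tested was 0%. It called 0 of 4 at an unadjusted p under 0.05, where the share over all tested was 4.63%. On recovered reads, edgeR and DESeq2 called 0 of 4 by either measure; over all tested their adjusted share was 0% each and their unadjusted share 7.11% and 5.12%. The groups overlapped for all 4 members, while they did not overlap for 3.64% of the miRNAs tested.

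The log2 fold change of miR-9-5p, bone cancer pain minus sham, was -0.01 (95% interval -0.20 to 0.19, limma adjusted p 0.989). This interval allows a fold of CPM + 1 between 0.872 and 1.14. Its sign turned under median-of-ratios scaling, under quantile normalization, in edgeR, in DESeq2, and when library 2 or 4 of bone cancer pain or library 3 of sham was left out. For miR-9-3p the log2 fold change was 0.10 (95% interval -0.23 to 0.44, limma adjusted p 0.943), or -0.04 leaving out bone cancer pain 3 and 0.18 leaving out sham 4.

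For miR-124-3p the log2 fold change was 0.13 (95% interval -0.31 to 0.56, limma adjusted p 0.943), or -0.01 leaving out bone cancer pain 3, 0.30 leaving out sham 4 and -0.08 leaving out both sham 1 and sham 2. The widest of the 4 intervals, it allows a fold between 0.806 and 1.48. For miR-124-5p the value was -0.11 (95% interval -0.45 to 0.22, limma adjusted p 0.943), a fold between 0.732 and 1.17. In a bulk cord library, fewer neurons and less of a miRNA per neuron cannot be told apart.

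**Figure D3:**
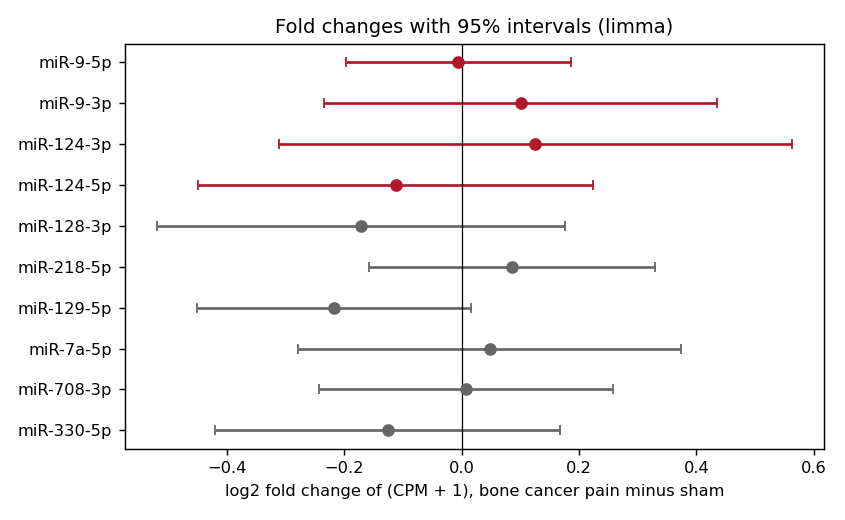
log2 fold change of CPM + 1, bone cancer pain minus sham (x axis), with 95% limma intervals for the 4 arms (red) and the 6 most abundant neuron-enriched miRNAs (grey). Every interval includes 0; that of miR-9-5p, -0.20 to 0.19, is the narrowest of the 10 and that of miR-124-3p, -0.31 to 0.56, the widest.

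Ratios between arms do not depend on the total of a library. miR-9 was dominated by its 5p arm and miR-124 by its 3p arm in 8 of 8 libraries. The 5p arm of miR-9 exceeded the 3p arm 75.4-, 70.1-, 55.0- and 66.4-fold in bone cancer pain 1 to 4, and 77.6-, 71.1-, 78.9- and 59.7-fold in sham 1 to 4. The lowest ratios were those of bone cancer pain 3 and sham 4, the libraries with the most miR-9-3p. The mean was 66.8 ± 8.64 in bone cancer pain and 71.8 ± 8.77 in sham (SD, n = 4 each), and the difference on the log2 scale was -0.11 (95% interval -0.52 to 0.34, two-sided exact permutation p 0.429, adjusted over 3 ratios 0.629).

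For miR-124 the 3p arm exceeded the 5p arm 28.3-, 23.7-, 31.2- and 33.6-fold in bone cancer pain 1 to 4, and 20.5-, 25.2-, 20.4- and 34.1-fold in sham 1 to 4. Here sham 4 was highest of all 8 and the other sham libraries lay between 20.4 and 25.2. The mean was 29.2 ± 4.26 in bone cancer pain and 25.0 ± 6.43 in sham (SD, n = 4 each), with a log2 difference of 0.24 (95% interval -0.53 to 0.71, two-sided exact permutation p 0.314, adjusted 0.629).

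The dominant arms of the families were also set against each other. miR-9-5p exceeded miR-124-3p 110-, 119-, 81.1- and 85.2-fold in bone cancer pain 1 to 4, and 124-, 117-, 122- and 74.0-fold in sham 1 to 4. Sham 4 was lowest and sham 1 highest of all 8, so the groups overlapped. The means were 98.8 ± 18.5 in bone cancer pain and 109 ± 23.6 in sham (SD, n = 4 each), with a log2 difference of -0.13 (95% interval -0.61 to 0.68, two-sided exact permutation p 0.629, adjusted 0.629), or 0.04 without sham 1 and sham 2. With 70 arrangements of the labels the smallest possible p is 0.0286.

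**Figure D4:**
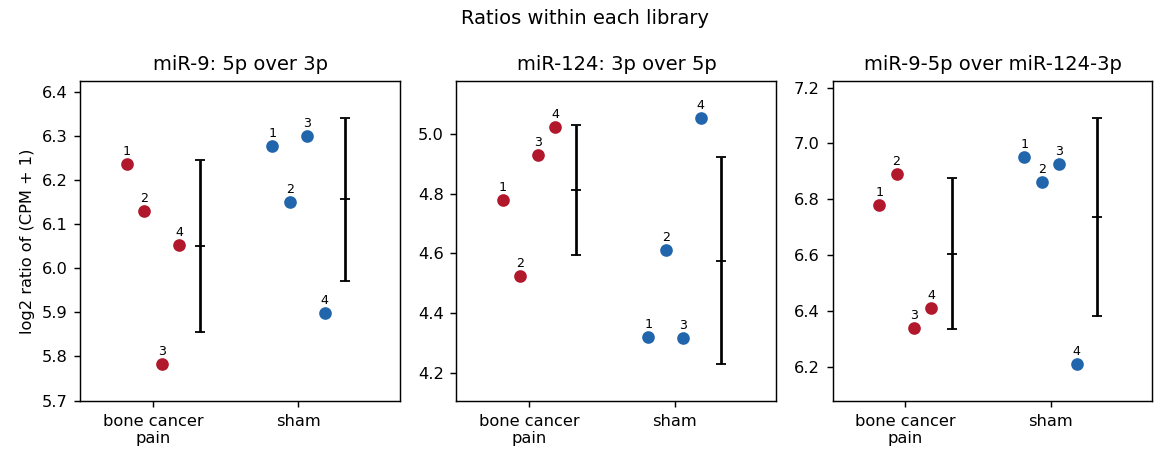
log2 ratio of CPM + 1 within each library (y axes do not start at 0), with points numbered by replicate and bars giving mean ± SD (n = 4). Bone cancer pain 3 (5.78) and sham 4 (5.90) are lowest for the miR-9 arms, sham 4 (5.05) is highest for the miR-124 arms, and the groups overlap in all 3 panels.

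Arms were also paired by miRNA name, which can sum several hairpins. Some names hold identical values for an arm and were counted separately. There were 298 names with both arms listed, a mean above 0 for each and at least 1 CPM for the larger. Of these, 146 were dominated by the 5p arm and 152 by the 3p arm, and the median ratio of the larger to the smaller arm was 32.6. miR-9 ranked 115 by this ratio, with 98.6% of its reads from the 5p arm, and miR-124 ranked 159, with 96.4% from the 3p arm. Both lay near the middle of these ranks. Of the 124 names whose larger arm averaged at least 100 CPM, 28 had a steadier log2 ratio than miR-9 (SD over the 8 libraries 0.18) and 90 a steadier one than miR-124 (SD 0.30), against a median SD of 0.25. That ratio is of CPM + 1, so for names whose lesser arm is near 0 CPM the SD mainly follows the larger arm. The lesser arms of miR-9 and miR-124 averaged 1375 and 34.7 CPM, so the comparison is partly between unlike quantities.

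All 6 pairs of arms were correlated over the 8 libraries on the log2(CPM + 1) scale. Adjusted p-values are from exact permutation over all pairings and over the 6 pairs. The lesser miR-9 arm and the dominant miR-124 arm, miR-9-3p and miR-124-3p, had r = 0.871 (exact permutation p 0.0125, adjusted 0.0417) and rho = 0.595 (exact p 0.132, adjusted 0.396). Without bone cancer pain 3 and sham 4, the libraries farthest from the median of miR-9-3p, r was 0.160 over 6 libraries, so the relation rests on those libraries. miR-9-5p and miR-124-5p had r = 0.789 (exact permutation p 0.0139, adjusted 0.0417) and rho = 0.814 (exact p 0.0185, adjusted 0.111). Without bone cancer pain 3 and bone cancer pain 4 their r was 0.517 over 6 libraries and no longer passed (exact permutation p 0.322). Those libraries hold the highest and lowest miR-9-5p, so leaving them out also narrows its range. Within groups this pair had r of 0.846 in bone cancer pain and 0.868 in sham (n = 4 each), without a test.

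The paired arms of miR-9 and of miR-124 were not significantly correlated. For miR-9-5p and miR-9-3p r was 0.557 and rho 0.238 (exact permutation p 0.176 and 0.582, adjusted 0.264 and 0.582), and r was -0.144 without bone cancer pain 3 and bone cancer pain 4. For miR-124-3p and miR-124-5p r was 0.363 and rho 0.263 (exact permutation p 0.365 and 0.525, adjusted 0.438 and 0.582), and r was -0.557 without bone cancer pain 3 and sham 4. The remaining pairs, miR-9-5p with miR-124-3p and miR-9-3p with miR-124-5p, had r of 0.266 and 0.545 and rho of 0.405 and 0.299 (exact p of r 0.519 and 0.168, adjusted 0.519 and 0.264; exact p of rho 0.327 and 0.470, adjusted 0.582 for each), and without the 2 libraries farthest from the median r was 0.07 and -0.46. Differences between these correlations were not tested. With deviations from the group means in place of levels, a setting chosen after seeing the data, the pairs that had passed had r of 0.864 and 0.828, each with an adjusted p of 0.141 by exact permutation within groups.

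**Figure D5:**
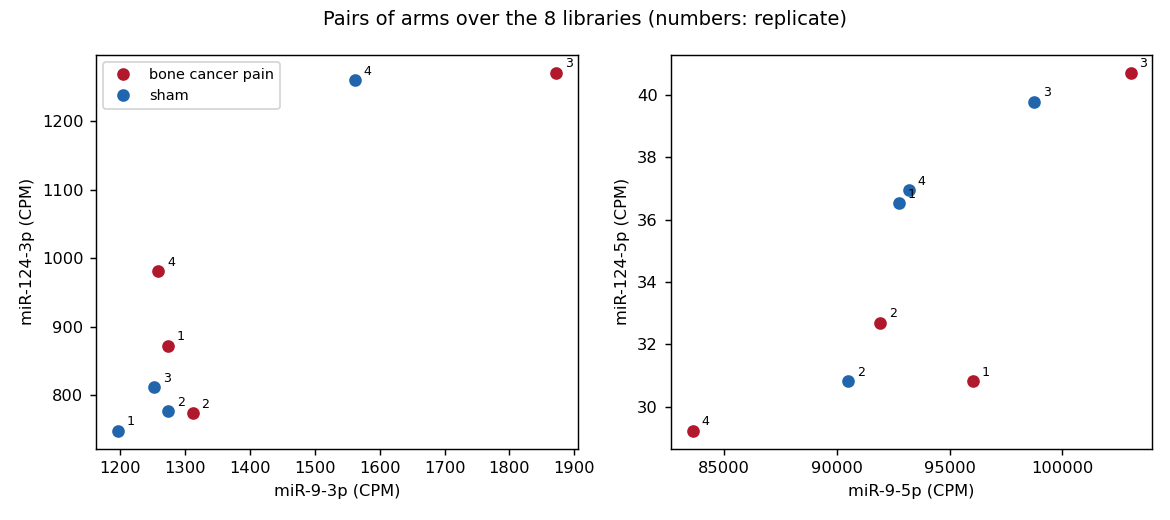
CPM of miR-124-3p against miR-9-3p (left) and of miR-124-5p against miR-9-5p (right), 1 point per library numbered by replicate, axes not starting at 0. On the left bone cancer pain 3 and sham 4 stand apart from the other 6 libraries (r = 0.871 with them, 0.160 without); on the right r is 0.789 over 8 libraries.

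Neuron-enriched miRNAs other than miR-9 and miR-124 were listed beside them by 25 names; 45 of 56 listed arms were tested. With limma 0 of the 45 passed an adjusted p of 0.05, beside 0% of all tested, and 0 an unadjusted one, beside 4.63%. edgeR and DESeq2 called 0 after adjustment and 1 each before it, beside 7.11% and 5.12% of all tested before adjustment. Of the 45, 22 had a log2 fold change above 0 and 23 below, where 48.3% of all tested were above, and the median was -0.02 beside -0.01 over all tested. Without sham 1 and sham 2 the counts were 16 above and 29 below, with a median of -0.09 beside -0.08. Without sham 4 they were 26 above and 19 below, with a median of 0.05 beside 0.05. Without sham 2 they were 15 above and 30 below, with a median of -0.05 beside -0.03. Without bone cancer pain 3 they were 16 above and 29 below, with a median of -0.10 beside -0.03. In that last fit 4 of the 45 had an unadjusted limma p under 0.05, beside 42 of 605 tested, and 0 an adjusted one. Leaving out bone cancer pain 1, 2 or 4 gave 23 above and 22 below each time. Leaving out sham 1 gave 21 and 24, and sham 3 gave 20 and 25. The 6 most abundant, all with intervals that include 0, were miR-128-3p, the motor neuron miRNA miR-218-5p, miR-129-5p, miR-7a-5p, miR-708-3p and miR-330-5p. miR-128-3p had means of 13905 ± 2936 CPM in bone cancer pain and 15582 ± 2426 CPM in sham (SD, n = 4 each), so miR-9-5p was the more abundant by far and miR-124-3p less abundant than miR-128-3p. miR-218-5p had means of 6121 ± 258 CPM in bone cancer pain and 5800 ± 738 CPM in sham.

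The mean log2 level of these 45 arms was 6.41 in bone cancer pain 3 and 6.32 in sham 4, the highest in each group, and between 6.03 and 6.21 in the other 6 libraries. The mean log2 level of the 10 tested Hox cluster miRNAs was also highest in its group in these libraries, at 7.72 in bone cancer pain 3 and 7.77 in sham 4. Summed CPM gave another order. The Hox cluster sum was lowest of the sham libraries in sham 4 (123156 CPM). In bone cancer pain 3 it was 125545 CPM, above only bone cancer pain 4 (118847 CPM). The neuron-enriched sum was highest of its group in bone cancer pain 3 (40727 CPM), but sham 4 (38464 CPM) was below sham 3 (40463 CPM). Oligodendrocyte miRNAs summed to 3979 CPM in sham 4, the most of the 8 libraries, and to 2563 CPM in bone cancer pain 3, within the range of its group. In the same 2 libraries the listed miRNAs took the smallest part of the total, 669252 CPM in bone cancer pain 3 and 679185 CPM in sham 4, against 683988 to 701908 CPM in the others, and sham 4 was the shallowest library. Erythroid miRNAs were lowest in their groups there, at 2171 and 1056 CPM in sum, with none of 7 names at 0. The part of these in the levels of miR-9-3p and miR-124-3p was not tested.

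The miRNAs most like each arm over the 8 libraries, by Pearson r of log2(CPM + 1) among the other 601 tested, differed from arm to arm. For miR-9-5p they were miR-3082-3p, miR-323-3p and miR-410-3p (r 0.931, 0.909 and 0.858). For miR-9-3p they were miR-411-3p, miR-384-5p and miR-29a-3p (r 0.962, 0.955 and 0.949), and for miR-124-3p miR-532-3p, miR-8114 and miR-29b-2-5p (r 0.951, 0.950 and 0.940). For miR-124-5p they were miR-128-3p, itself neuron-enriched, with miR-369-5p and miR-3059-5p (r 0.956, 0.933 and 0.887). An r of at least 0.9 was reached by 2 miRNAs for miR-9-5p, 10 for miR-9-3p, 11 for miR-124-3p and 2 for miR-124-5p. All share the library denominator, and with 8 libraries such values are descriptions.

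The opposite strand of the miR-9 genes also encodes listed miRNAs, miR-9b-5p and miR-9b-3p, whose sequences are shown with the seed in capitals because they overlap the miR-9 arms on the other strand.
miR-9b-5p: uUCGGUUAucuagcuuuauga
miR-9b-3p: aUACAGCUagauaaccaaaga
The 21 bases of miR-9b-3p are contained in the reverse complement of miR-9-5p, while the 21 bases of miR-9b-5p are not wholly contained in that of miR-9-3p. Read 5′ to 3′, miR-9b-5p aligned to miR-9-5p over 21 bases with 2 mismatches, U5C and G18U (positions from 1 at the 5′ end of miR-9-5p, whose base comes first), and miR-9b-3p aligned to miR-9-3p over 21 bases with 4. Both miRNAs were chosen after their values were seen. miR-9b-5p had 7, 12, 12 and 6 reads in bone cancer pain 1 to 4, and 8, 7, 5 and 5 reads in sham 1 to 4. The mean of miR-9b-5p, below the level tested, was 0.895 ± 0.281 CPM in bone cancer pain and 0.600 ± 0.184 CPM in sham (SD, n = 4 each). miR-9b-3p had 1 read in bone cancer pain 3 and 0 in the other 7 libraries, where 0 reads allow up to 3 reads, or 0.222 to 0.390 CPM.

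miR-124b-3p was also chosen after its values were seen. It had 1.35, 2.06, 1.60 and 2.39 CPM in bone cancer pain 1 to 4, and 1.35, 2.30, 2.69 and 3.77 CPM in sham 1 to 4. Sham 4, among the highest for miR-124-3p, was also highest here, while bone cancer pain 3 was not. Its log2 fold change was -0.28 (95% interval -0.77 to 0.22, limma adjusted p 0.943), on 11 to 34 reads per library.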

How the data were processed

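Extraction used TRIzol, per the labels' protocols, which also describe rRNA removal and fragmentation; the sample descriptions name small RNA. The submitters' processing notes list fastp, STAR, Bowtie, Salmon and the build mm10, with no role. The single deposited table gives CPM, computed by the authors and scaled to library totals that include reads outside the listed miRNAs. Reads were recovered from the CPM steps; 99.71% or more of the values above 0 in a library were whole reads within 0.0051 CPM. In bone cancer pain 3 the step is close to 0.1 CPM, but from 1 CPM upward 16.6% of its values were multiples of 0.1. Counting intervals and floors (3 reads) cover counting error only, since PCR copies are not independent molecules. Unmapped columns numbered 0.

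miRNAs averaging 1 CPM or more were analysed as log2(CPM + 1) with limma 3.58.1 in R 4.3.3 (trend, two-sided, Benjamini-Hochberg). The method was tested on simulated data. edgeR 4.0.16 and DESeq2 1.42.0 were run on recovered reads as settings chosen after seeing the data, as was leaving out sham 1 and sham 2. Intervals of ratios come from the exact permutation test.

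The members and lists were chosen with earlier results of these data known. Named were the members, their neighbours in rank, the 3 miRNAs most like each, the 5 most abundant, the 6 most abundant of the neuron-enriched list and the 2 most abundant of each marker list; any other is marked. The muscle list was led by miR-1a-3p and miR-133a-3p (means 12471 and 389 CPM over 8 libraries), the erythroid list by miR-451a and miR-486b-5p (921 and 874 CPM), the oligodendrocyte list by miR-219a-2-3p and miR-338-5p (1583 and 715 CPM), and the leukocyte list by miR-150-5p and miR-142a-5p (203 and 87.3 CPM). No list had a member past the adjusted threshold in limma (0% of all tested); unadjusted, 1 of 6 leukocyte and 1 of 10 Hox miRNAs passed, beside 4.63% of all tested.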

Additional observations from a re-analysis of the deposited data

Results flagged for a closer look

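In 3 of 16 sets of 4 libraries (8 measures in both groups), 1 library lay far from the nearest of the others compared with the range of its group. By chance this happens for about 1 set in 20, and the measures share libraries. miR-9-3p stood at 1872 CPM in bone cancer pain 3, where the others reached at most 1311 CPM. miR-124-3p stood at 1260 CPM in sham 4, where the others reached at most 812 CPM. The log2 ratio of miR-9-5p to miR-124-3p in sham 4 was 6.21, where the other sham libraries were at 6.86 or above. That ratio contains the flagged miR-124-3p level of sham 4, so it is not a separate observation. The origin of these values was not tested.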

How the results depend on the processing

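The 4 fold changes and the 3 ratios stayed short of the adjusted threshold under every setting run, and the number of miRNAs past it stayed at 0 in all 21 (lowest adjusted p 0.104, without sham 1). The value of miR-9-5p turned to 0.00399 under median-of-ratios scaling, 0.0595 under quantile normalization, 0.00619 in edgeR and 0.00644 in DESeq2. Leaving out 1 library gave -0.053 to 0.0476 for miR-9-5p, -0.0363 to 0.184 for miR-9-3p, -0.0103 to 0.299 for miR-124-3p and -0.21 to -0.0548 for miR-124-5p. It gave -0.192 to -0.0167 for the miR-9 arm ratio, 0.152 to 0.398 for the miR-124 arm ratio and -0.307 to -0.0427 for miR-9-5p to miR-124-3p. Without sham 1 and sham 2 the value of miR-124-3p was -0.0781 and that of miR-9-5p to miR-124-3p 0.0393. The cause was not tested. Correlations over 6 libraries, the 2 farthest from the median left out, were -0.144 for the miR-9 arms, -0.557 for the miR-124 arms, -0.461 for miR-9-3p with miR-124-5p, 0.517 for miR-9-5p with miR-124-5p and 0.16 for miR-9-3p with miR-124-3p; with deviations from group means the last 2 pairs had 0.828 and 0.864.

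Libraries with the same number did not deviate together (r of -0.0553, -0.0558, -0.0111 and -0.313 across miRNAs for numbers 1 to 4). The labels give no pairing by number, and whether such libraries shared a batch was not tested. A replicate block left 0 miRNAs past the threshold and called none of the 4 arms. With 4 libraries a group, intervals as wide as that of miR-124-3p allow changes of up to 1.48-fold.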
